A study of Mus musculus with 12 samples.

Results

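The genes described here were 10 direct targets of canonical Wnt signalling or markers of the stem cell at the base of the intestinal crypt: *Axin2*, *Nkd1*, *Notum*, *Rnf43*, *Znrf3*, *Sp5*, *Lgr5*, *Ascl2*, *Tcf7* and *Lef1*. They were chosen by name, by matching the Ensembl identifiers of the count tables to mouse symbols, and are 10 of the 38924 genes listed. RNA-Seq had been carried out on proximal colonic mucosa from female C57BL/6 mice aged 6 weeks, of which 6 were APC Min/+ and 6 were WT. APC Min/+ mice carry 1 mutant *Apc* allele in every cell, and counts per gene cannot tell its transcript from the normal one, so genotype labels could not be checked from them. The mice came in several shipments and the genotypes were caged apart, so an effect of cage and an effect of genotype cannot be told apart. The question addressed is whether targets of the pathway that Apc restrains differ between the genotypes at an age before visible neoplasia.

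In canonical Wnt signalling a destruction complex that includes Apc and Axin marks beta-catenin for degradation. When Wnt ligands bind their receptors, or when Apc is lost, beta-catenin accumulates, enters the nucleus and activates transcription together with TCF/LEF factors. Several of the genes it activates encode brakes on the same pathway, and their transcript level is widely read as a measure of pathway output. In the colon this activity is highest at the crypt base, where the stem cells lie.

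By role, the 10 genes fall into 5 kinds. *Axin2* (chr11:108920349-108950783, plus strand, GRCm38, gene positions from GENCODE M21) encodes a scaffold of the destruction complex, and *Nkd1* (chr8:88521354-88594884, plus) a protein that binds Dishevelled and dampens the signal. *Notum* (chr11:120653788-120661175, minus) encodes a secreted enzyme that removes the lipid from Wnt ligands. *Rnf43* (chr11:87662722-87735539, plus) and *Znrf3* (chr11:5276324-5444847, minus) encode membrane E3 ubiquitin ligases that clear Frizzled receptors from the cell surface. *Lgr5* (chr10:115450311-115587780, minus) encodes a receptor for R-spondins and marks the crypt stem cell, and *Ascl2* (chr7:142966829-142969264, minus) encodes a transcription factor of that cell. *Tcf7* (chr11:52252371-52283014, minus) and *Lef1* (chr3:131110471-131224356, plus) encode TCF/LEF factors, which T cells use as well, and *Sp5* (chr2:70474923-70477729, plus) encodes a zinc finger repressor. All 10 are annotated as protein coding. Exons of *Notum* share 708 bases with the antisense gene *Notumos* and 210 bases with the antisense gene *Myadml2os*, out of 2408 exonic bases. *Axin2* shares 209 of 5506 with *Gm11670*. *Lef1* shares 1208 of 8788 with the antisense gene *Gm43352*, which is not in the count tables. The strand setting of the counting is not given in the sources used here, so reads there could not be assigned to a strand. The low *Notum* and *Lef1* values carry this uncertainty.

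The TCF/LEF factors bind words close to CTTTGAT, and the promoters were searched on both strands for 4 words, CTTTGA or CTTTGT followed in each case by A or T, which cannot overlap each other on 1 strand. RefSeq promoter windows of 300 bases (250 before and 50 after the start, GRCm38.p6) were on hand for 7 of the 10 genes, 12 windows in all. A word was found in 2 of the 12, the *Sp5* window and 1 of the 4 *Lef1* windows, against 16.9% of all 32851 windows. The stretches around all matches are printed, and they come from *Sp5* and *Lef1* because only these 2 members had a match. They are read 5′ to 3′ on the plus strand, with the matched word in capitals.
Sp5, chr2:70474779-70474865, word 104 bases before the start: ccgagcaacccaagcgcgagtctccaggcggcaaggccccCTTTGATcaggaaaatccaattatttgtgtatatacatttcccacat
Sp5, chr2:70474673-70474747, word 222 bases before the start: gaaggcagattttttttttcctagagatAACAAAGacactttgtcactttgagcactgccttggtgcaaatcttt
Lef1, chr3:131156107-131156193, word 147 bases before the start: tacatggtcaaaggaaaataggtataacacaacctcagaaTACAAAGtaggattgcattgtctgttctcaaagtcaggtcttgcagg
The *Lef1* start with the match lies inside the gene and not at its first base. A match describes the letters of the window and does not show that a factor bound there.

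Each mouse had between 50313805 and 197914821 reads counted on genes. Levels are given as CPM, counts scaled to library size with TMM factors of 0.906 to 1.10, and 3 counts, the detection floor used here, correspond to 0.0152 to 0.0596 CPM. All 10 genes passed the filter of 10 counts in 3 or more mice. Libraries of 2 APC Min/+ mice stood apart. The summed CPM of 5 posterior Hox genes, which are known for the distal end of the gut, was 473 in M10_2 and 600 in M13_1, against 7.34 to 13.7 in the other 10 mice, although the labels give proximal colon for all 12. Not all 5 genes were high in both. Most of the sum in M10_2 was *Hoxb13*, at 378 CPM. *Hoxd11* was at 45.6 CPM in M13_1 but at 4.84 CPM in M10_2, against 5.66 to 10.8 CPM in the other 10 mice. Because these libraries stood apart, results are given with and without M10_2 and M13_1. The 9 epithelial markers were present in every mouse, with a summed CPM of 9038 to 12496 in APC Min/+ mice and 7565 to 14687 in WT mice. So were 8 smooth muscle markers, with a summed CPM of 4584 to 7153 in APC Min/+ mice and 4845 to 6112 in WT mice. In bulk mucosa, fewer cells of a type and less RNA per cell cannot be told apart.

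Scaled by gene length, the ligase gene *Rnf43* was the highest of the 10, with a mean level of 5.19 ± 1.44 RPKM (SD, n = 12), and it lay above *Axin2* in all 12 mice. RPKM is CPM per kilobase of the gene length deposited with the counts. For *Rnf43* and *Lgr5* that length equalled all annotated exonic bases of the gene, 6558 and 10264, as it did for *Axin2*, *Notum* and *Tcf7*. For *Nkd1* and *Lef1* it was 4459 and 8654, against 4558 and 8788 exonic bases. The order therefore depends in part on the annotation. *Axin2* and *Nkd1* followed at 3.53 ± 1.14 and 3.19 ± 0.874 RPKM, and *Axin2* was the higher of this pair in 6 of 12 mice, so their order was not separated. *Tcf7*, *Znrf3*, *Ascl2* and *Lgr5* formed a middle tier with mean levels of 1.88, 1.83, 1.62 and 1.52 RPKM. Within it *Tcf7* exceeded *Znrf3* in 6 mice and *Ascl2* exceeded *Lgr5* in 4, so neither pair was separated, while *Znrf3* exceeded *Ascl2* in 10. The last 3 genes were more than an order of magnitude lower. *Lef1* was at 0.117 RPKM, *Sp5* at 0.0995 and *Notum* at 0.0770, and each exceeded the next in 7 of 12 mice.

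No member passed the test for a difference between genotypes. With edgeR's quasi-likelihood test, calls at an FDR under 0.05 and 2-fold or more numbered 0 among the 10 genes and 0 percent of the 20311 genes tested. An unadjusted p under 0.05 was found for 0 of the 10, against a background of 5.27 percent, and an exact permutation p under 0.05 for 0 of the 10, against 3.98 percent. The alternative tools also called 0 of the 10, where DESeq2 called 0.133 percent of all genes, edgeR's likelihood ratio test 0.0739 percent and edgeR's exact test 0.0591 percent. The 2 genotypes overlapped for all 10 genes, against 0.118 percent of genes tested without overlap. The mean was higher in APC Min/+ mice for 9 genes and lower for *Sp5*, against 48.4 percent of all genes tested that had a higher mean. The median log2 fold change of the 10 was 0.28, beside -0.0077 over all genes tested. The 10 genes vary together between mice, as described further on, so the 9 are not 9 separate observations. The median was 0.098 without M10_2 and M13_1.

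**Figure D1:**
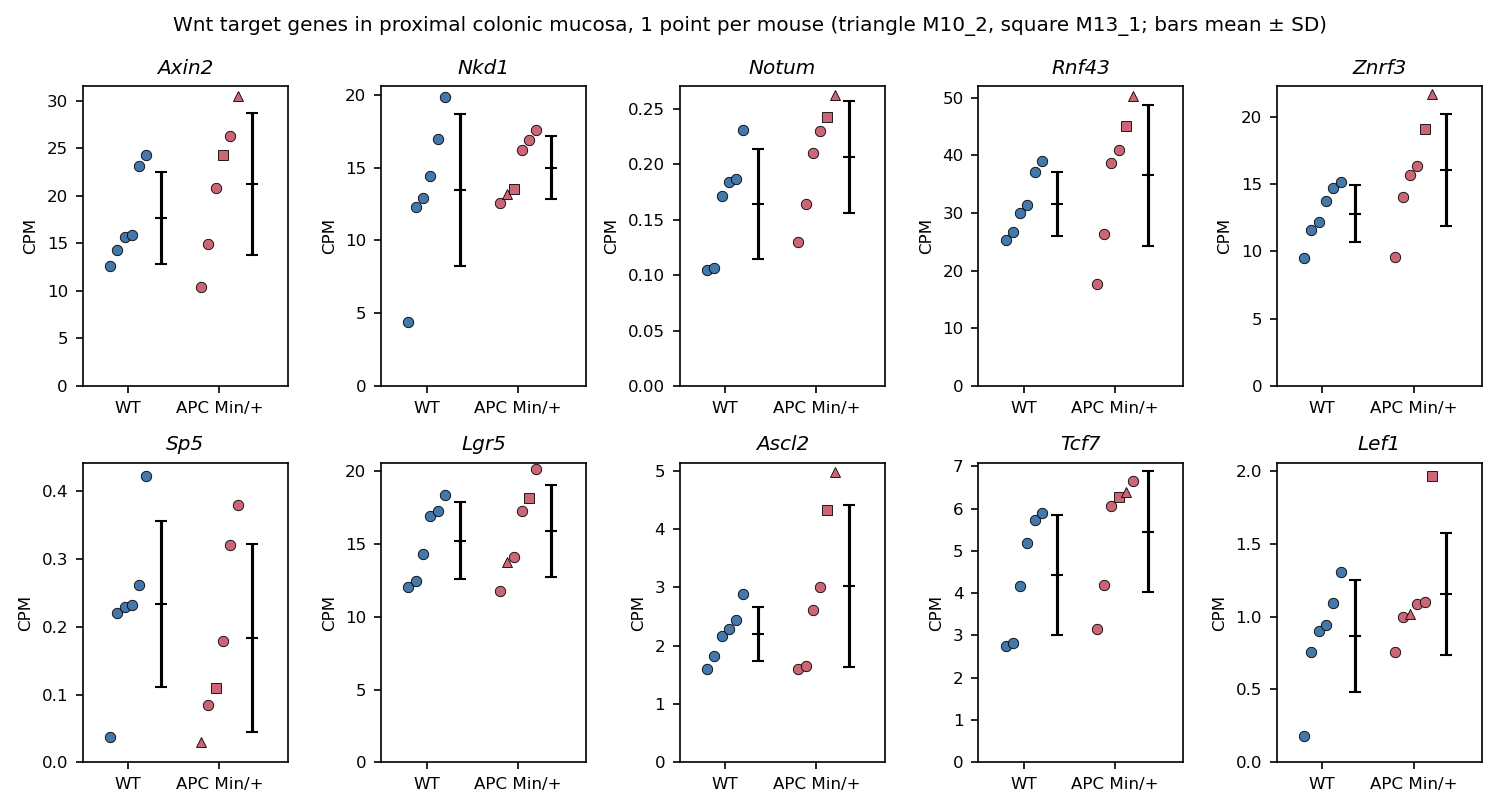
CPM of each of the 10 genes (vertical axes, each starting at 0) in the 6 WT mice (blue) and 6 APC Min/+ mice (red), 1 point per mouse, with the mean and SD beside the points. Triangles are M10_2 and squares M13_1. The genotypes overlap in all 10 panels, and M10_2 holds the highest value for *Axin2*, *Notum*, *Rnf43*, *Znrf3* and *Ascl2* and the lowest for *Sp5*.

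Among the inhibitors inside the cell, *Axin2* lay between 10.4 and 30.5 CPM in APC Min/+ mice with a median of 22.6, and between 12.6 and 24.3 CPM in WT mice with a median of 15.8. Both the lowest mouse, M2_A, and the highest, M10_2, were APC Min/+, so that genotype enclosed the other. The means were 21.2 ± 7.46 and 17.7 ± 4.86 CPM (SD, n = 6 each), a log2 fold change of 0.27 (SE 0.249, Benjamini-Hochberg FDR = 0.910, edgeR). It was 0.038 without M10_2 and M13_1.

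*Nkd1* ranged from 12.6 to 17.6 CPM in APC Min/+ mice, with a median of 14.9, and from 4.43 to 19.8 CPM in WT mice, with a median of 13.7. The WT range enclosed the APC Min/+ range, and the lowest value belonged to M17_1, far below the next WT mouse, M18_2a, at 12.3 CPM. The means were 15.0 ± 2.14 and 13.5 ± 5.24 CPM (SD, n = 6 each), with a log2 fold change of 0.16 (SE 0.263, FDR = 0.924, edgeR). Its sign rested on M17_1, since the log2 fold change was -0.027 without that mouse. It was 0.23 without M10_2 and M13_1.

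The secreted inhibitor *Notum* was scarce, with 10 to 52 counts per mouse. APC Min/+ mice had 0.130 to 0.263 CPM with a median of 0.220, and WT mice 0.104 to 0.231 CPM with a median of 0.178. The groups overlapped over most of their range, and the log2 fold change was 0.34 (SE 0.273, FDR = 0.910, edgeR). It was 0.16 without M10_2 and M13_1, which had the highest values of all 12 mice at 0.263 and 0.243 CPM.

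Of the receptor-clearing ligases, *Rnf43* had the wider spread in APC Min/+ mice, from 17.7 to 50.4 CPM with a median of 39.9, against 25.3 to 39.1 CPM with a median of 30.6 in WT mice. The APC Min/+ mice M2_A and M10_2 again marked both ends. The log2 fold change was 0.21 (SE 0.220, FDR = 0.910, edgeR), and it turned to -0.029 without M10_2 and M13_1.

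*Znrf3* ranged from 9.57 to 21.6 CPM in APC Min/+ mice (median 15.97) and from 9.49 to 15.1 CPM in WT mice (median 12.9). M2_A lay at the level of the lowest WT mouse, while 4 APC Min/+ mice exceeded every WT mouse. The means were 16.04 ± 4.17 and 12.8 ± 2.15 CPM (SD, n = 6 each), a log2 fold change of 0.33 (SE 0.180, FDR = 0.908, edgeR; exact permutation test, two-sided, p = 0.160). This was the lowest exact p of the 10 genes. Without M2_A it was 0.0173 (exact permutation test, two-sided), with a log2 fold change of 0.45 and an edgeR FDR of 0.541. The log2 fold change was 0.12 without M10_2 and M13_1. With M2_A left out, 7.93 percent of all genes tested had an exact p under 0.05.

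**Figure D2:**
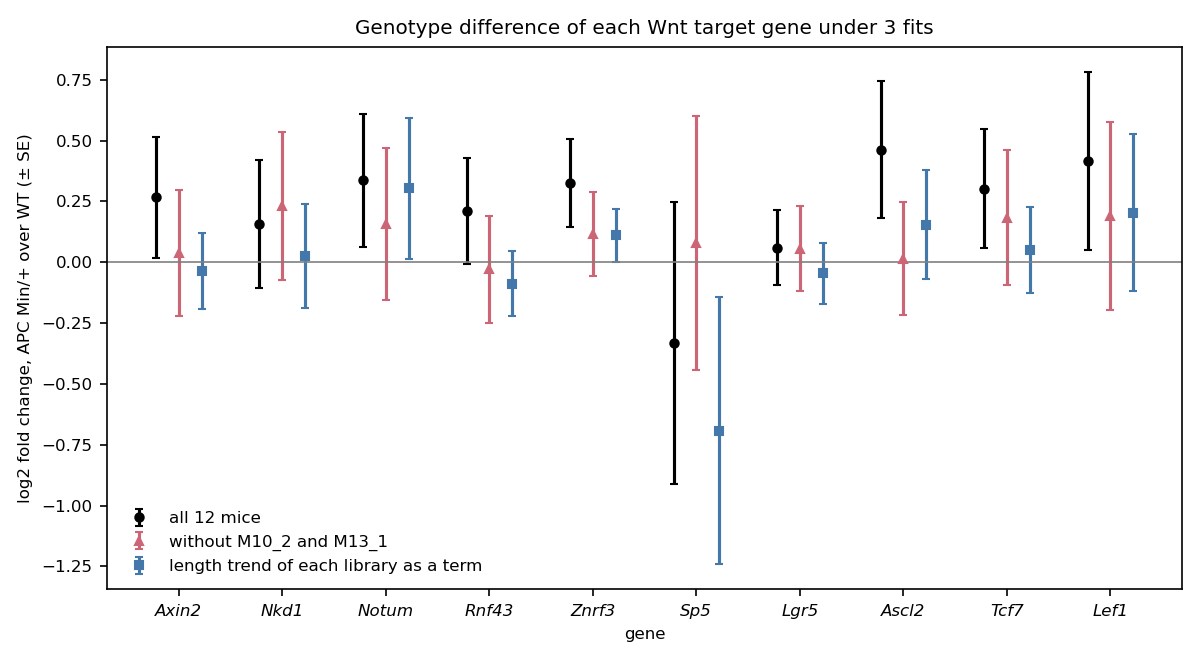
Log2 fold change of APC Min/+ over WT with its standard error (vertical axis) for each gene (horizontal axis), in all 12 mice (black circles), without M10_2 and M13_1 (red triangles) and with each library's length trend as a term (blue squares). With all mice 9 of the 10 values lie above 0, and without M10_2 and M13_1 that of *Rnf43* falls to -0.029 and that of *Ascl2* to 0.014.

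The stem cell marker *Lgr5* was the steadiest of the 10. It lay between 11.8 and 20.2 CPM in APC Min/+ mice (median 15.7) and between 12.1 and 18.4 CPM in WT mice (median 15.6), a range of 1.71-fold from the lowest to the highest mouse. The means, 15.9 ± 3.17 and 15.2 ± 2.67 CPM (SD, n = 6 each), gave a log2 fold change of 0.06 (SE 0.154, FDR = 0.946, edgeR). The value turned to -0.021 without M8_2, the mouse with the highest level, and was 0.056 without M10_2 and M13_1.

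*Ascl2* had the largest fitted difference, although it was not past the test. APC Min/+ mice had 1.60 to 4.97 CPM with a median of 2.81, and WT mice 1.60 to 2.88 CPM with a median of 2.22. The lowest mice of both genotypes were level, and the 2 highest values were those of M10_2 (4.97 CPM) and M13_1 (4.33 CPM). The log2 fold change of 0.46 (SE 0.282, FDR = 0.908, edgeR) became 0.014 without these mice, so nearly all of it rested on them. Across the 12 mice, *Ascl2* rose and fell with the posterior Hox genes (r = 0.866, permutation test, p adjusted over 150 pairs of gene and marker list = 0.0292, rho = 0.804, adjusted p of rho = 0.0617). Without M10_2 and M13_1 the r was 0.771 and the adjusted p 0.229. In the remaining mice *Hoxd12* had 0 to 12 counts and *Hoxb13* 0 to 145, so this r rests in part on few counts.

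Of the transcription factors, *Tcf7* ranged from 3.15 to 6.64 CPM in APC Min/+ mice (median 6.16) and from 2.74 to 5.90 CPM in WT mice (median 4.68). In APC Min/+ mice 4 of the 6 values lay between 6.07 and 6.64 CPM, above all WT mice, and M20_1 and M2_A lay within the WT range. The fitted difference was 0.30 on the log2 scale (SE 0.243, FDR = 0.910, edgeR), and 0.18 without M10_2 and M13_1.

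*Lef1* was counted 20 to 202 times per mouse. It lay between 0.757 and 1.97 CPM in APC Min/+ mice (median 1.05) and between 0.184 and 1.31 CPM in WT mice (median 0.924). Single mice set both extremes, M13_1 at 1.97 CPM and M17_1 at 0.184 CPM, 10.7-fold apart, and the other 10 mice lay between 0.757 and 1.31 CPM. This gave a log2 fold change of 0.42 (SE 0.366, FDR = 0.910, edgeR). Either extreme mouse carried about as much of it as the other, since it was 0.20 without M13_1 and 0.21 without M17_1, and it was 0.19 without M10_2 and M13_1.

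*Sp5*, whose promoter stretches are printed above, was the most variable of the 10 and was counted only 4 to 74 times per mouse. It lay between 0.0303 and 0.380 CPM in APC Min/+ mice (median 0.145) and between 0.0368 and 0.423 CPM in WT mice (median 0.231), 14.0-fold from the lowest to the highest of the 12. The lowest mouse was M10_2, which was the highest for 5 other members, and M17_1 and M2_A followed. The log2 fold change was -0.33 (SE 0.579, FDR = 0.925, edgeR) and turned to 0.079 without M10_2 and M13_1.

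The members varied between mice of both genotypes. The SD of log2 CPM over the 12 mice had a median of 0.478 among the members, beside 0.354 among all genes tested. The mouse M17_1 (WT) was among the 3 lowest for 9 of the 10 genes, and M2_A (APC Min/+) for 8. At the other end M13_1 was among the 3 highest for 8 genes, and M8_2 and M10_2, both APC Min/+, for 6 each.

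Members varied together across the mice. Of the 45 pairs of genes, 42 had a positive Pearson's r of log2 CPM, with a median r of 0.48, and 12 had a Benjamini-Hochberg adjusted p under 0.05 over the 45 pairs (permutation test, 12 mice). By Spearman's rho the number was 10. Taken as deviations from the genotype means, 11 pairs passed. Among all genes with a mean CPM of at least 1, the median r with a member ran from -0.085 for *Tcf7* to 0.035 for *Sp5*. Of these genes, 0.0336 percent had a higher r with *Axin2* than *Rnf43* did, and 32.1 percent a higher one than *Nkd1* did. With *Znrf3*, 2.11 percent had a higher r than *Rnf43* did, and 20.3 percent a higher one than *Lef1* did.

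The tightest group held *Axin2*, *Rnf43*, *Znrf3* and *Ascl2*, 2 kinds of inhibitor with a stem cell factor. *Axin2* and *Rnf43* had the highest r of all pairs, 0.948 (adjusted p = 0.00045, permutation test over 12 mice), with a rho of 0.895 (adjusted p = 0.0014). It was 0.912 without the 2 mice farthest from the *Axin2* median, and 0.927 without M10_2 and M13_1. The ligases *Rnf43* and *Znrf3*, which act on the same receptors, had an r of 0.914 and a rho of 0.923, and an r of 0.865 without the 2 mice farthest from the *Rnf43* median. The r of *Ascl2* was 0.908 with *Znrf3*, 0.901 with *Rnf43* and 0.890 with *Axin2*. *Tcf7* passed with each of these genes by r and by rho. Its r was 0.860 with *Znrf3*, 0.795 with *Axin2*, 0.794 with *Rnf43* and 0.725 with *Ascl2*. Every r among the first 4 genes stayed at 0.846 or above when any 1 mouse was left out.

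*Nkd1* passed with *Sp5* (r = 0.678, adjusted p = 0.0349, permutation test over 12 mice, rho = 0.671) and with *Tcf7* (r = 0.630, adjusted p = 0.0424, rho = 0.615), in both cases by r and not by rho. Its highest r was with *Lef1*, a pair that did not pass. Their r of 0.860 had an adjusted p of 0.0599 (permutation test over 12 mice) and a rho of 0.587, and it rested on M17_1, the mouse lowest for both, since it was 0.250 without that mouse and 0.114 without the 2 mice farthest from the *Nkd1* median. *Nkd1* and *Axin2*, both inhibitors inside the cell, had an r of 0.361 (adjusted p = 0.359, permutation test over 12 mice).

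*Lgr5* passed with no other member. Its highest r was 0.584 with *Rnf43* (adjusted p = 0.126, permutation test over 12 mice), and with its fellow stem cell gene *Ascl2* it was 0.505. Without M10_2 and M13_1 the r of *Lgr5* with *Ascl2* was 0.838. *Notum* passed with none either, and its r with *Sp5* was -0.436, at counts so low that a weak correlation is no finding.

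*Sp5* changed most with the choice of mice. Over all 12 mice its r was 0.112 with *Axin2*, 0.140 with *Rnf43* and 0.0846 with *Znrf3*. Without M10_2 and M13_1, in which *Sp5* was low while these 3 genes were high, the same values were 0.691, 0.770 and 0.890. Over those 10 mice 24 of the 45 pairs of members had an adjusted p under 0.05.

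**Figure D3:**
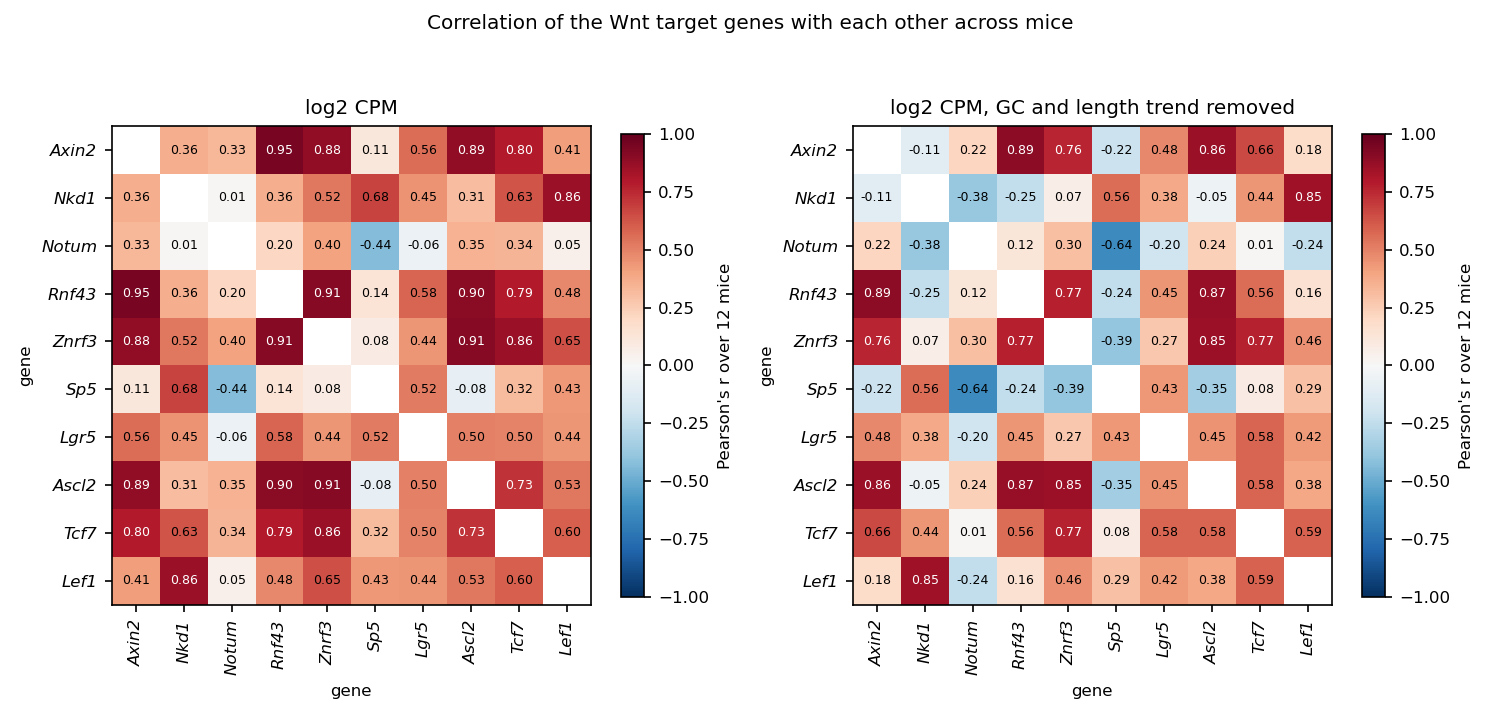
Pearson's r between each pair of the 10 genes over 12 mice, for log2 CPM (left) and after removal of each library's linear trend on GC content and length (right), on a colour scale from -1 (blue) to 1 (red) with r written in each cell. *Axin2*, *Rnf43*, *Znrf3* and *Ascl2* hold the highest values on the left, and on the right the number of pairs with an adjusted p under 0.05 falls from 12 to 7.

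The libraries also differed in a trend across all genes that moved with the members. In each library the deviation of log2 CPM from the mean over mice was regressed on transcript GC content and length over 14606 genes. The length slope ran from -0.220 log2 units per doubling of length in M17_1 and -0.170 in M2_A to 0.121 in M10_2, and the GC slope from -0.468 per 10 points of GC in M17_1 to 0.233 in M10_2. The level of *Znrf3* followed the length slope with an r of 0.897 (adjusted p over 20 pairs of gene and trend = 0.0004, permutation test over 12 mice), *Rnf43* with 0.875 and *Axin2* with 0.868. Without the 2 mice of the most distant slopes these were 0.776, 0.860 and 0.894. *Tcf7* followed the GC slope with 0.904. *Notum* and *Sp5* had an r of 0.225 and 0.402 with the length slope over all mice, and *Sp5* had 0.895 without M10_2 and M13_1. The short *Ascl2*, with 1612 bases, also had an r of 0.776 with the length slope.

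With each library's linear trend on GC content and length taken out, 7 of the 45 pairs had an adjusted p under 0.05 by r and 4 by rho. *Axin2* with *Rnf43* kept an r of 0.895, *Rnf43* with *Ascl2* 0.868 and *Axin2* with *Ascl2* 0.860, while *Axin2* with *Nkd1* was at -0.112. With M10_2 and M13_1 left out as well, 4 pairs passed. With the length slope as a term in the edgeR fit, 6 members were higher and 4 lower in APC Min/+ mice, with a median log2 fold change of 0.038 and 0 called. The log2 fold change of *Znrf3* was then 0.11 and that of *Axin2* -0.037. The part of the trend in the levels of the members was otherwise not tested.

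**Figure D4:**
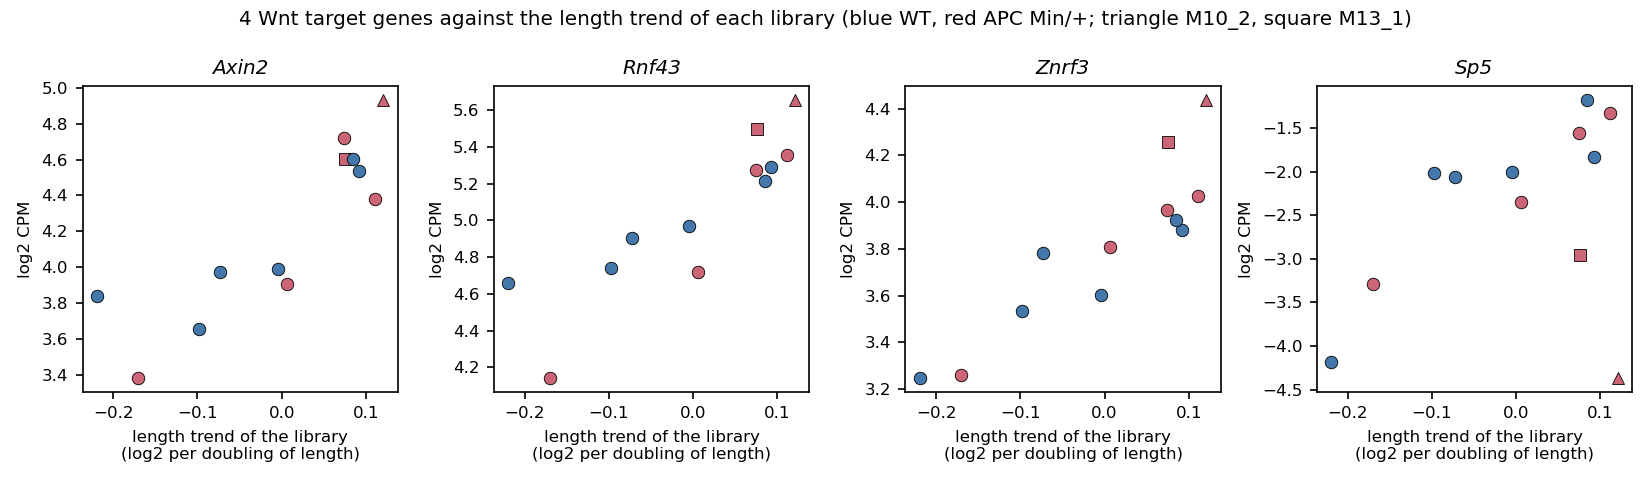
Log2 CPM of *Axin2*, *Rnf43*, *Znrf3* and *Sp5* (vertical axes, which do not start at 0) against the length slope of each library (horizontal axis, log2 units per doubling of transcript length), 1 point per mouse, WT in blue and APC Min/+ in red. The first 3 genes climb along the slope (r of 0.868, 0.875 and 0.897), and *Sp5* does so except in M10_2 (triangle) and M13_1 (square).

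Against 15 marker lists of other cells and regions, 4 of 150 pairs of gene and list had an adjusted p under 0.05, 1 of them by rho. Apart from *Ascl2* with the Hox genes, *Znrf3* was lower where 5 plasma cell markers were higher (r = -0.902, adjusted p = 0.0045, permutation test over 12 mice, rho = -0.902), and *Rnf43* likewise (r = -0.827, adjusted p = 0.0341). The summed plasma cell CPM ranged from 314 in M13_1 to 2289 in M2_A among APC Min/+ mice and from 690 to 2143 among WT mice. *Lef1* was lower where 11 T cell markers were higher (r = -0.680, adjusted p = 0.0341, permutation test over 12 mice, rho = -0.762), with a summed T cell CPM of 13.8 to 26.8 in APC Min/+ and 16.9 to 29.9 in WT mice. T cells express *Lef1* themselves. Without M10_2 and M13_1 the r of these pairs was -0.938 (adjusted p = 0.0330), -0.791 (adjusted p = 0.170) and -0.625 (adjusted p = 0.237). With the GC and length trends removed, 1 of the 4 pairs still passed, *Ascl2* with the Hox genes (r = 0.921, adjusted p = 0.0075, permutation test over 12 mice). *Znrf3* and *Rnf43* with the plasma cell list then had an r of -0.745 (adjusted p = 0.135) and -0.566 (adjusted p = 0.320), and *Lef1* with the T cell list one of -0.732 (adjusted p = 0.0517). The part of these cells in the levels of the members was not tested.

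For each member the 3 most similar of 14898 genes with a mean CPM of at least 1 were found by Pearson's r of log2 CPM over the 12 mice. Those of *Axin2* were *Bsn*, *Cttnbp2nl* and *Notch1* (r of 0.965, 0.952 and 0.951), and *Rnf43* ranked 6 among its partners. Other members of the tightest group ranked lower. *Axin2* ranked 34 for *Rnf43* and 208 for *Ascl2*, and *Rnf43*, *Ascl2* and *Axin2* ranked 316, 363 and 604 for *Znrf3*. The 3 genes most similar to *Znrf3* were *Ern1*, *Dip2a* and *Sorl1*, all at 0.989 to 0.990, and those of *Rnf43* were *Kdm3b*, *Prrc2c* and *Ppargc1b* at 0.971 to 0.973. Those of *Nkd1* were *Foxf2* (0.987), *Ntn1* (0.983) and the smooth muscle gene *Lmod1* (0.982), and those of *Lef1* were *Mex3b*, *Pgm5* and *Mtdh*. *Lgr5* was nearest to *Dis3* (0.896), *Cdca7* (0.858) and *Nsd2* (0.850), of which *Cdca7* is itself on the list of crypt base genes used here. The remaining partners were *Lsm11* and *Zfp704* for *Ascl2*, *Itfg2*, *Shmt2* and *Trim28* for *Tcf7*, *Oxsr1*, *Sh3gl2* and *Glyctk* for *Sp5*, and *Msantd3*, *Dock3* and *Dusp26* for *Notum*. These mice share the library trends described above, so the values are a description.

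Other genes of the pathway gave 0 calls as well. Of 17 further Wnt targets tested, of 18 listed, 0 had an unadjusted p under 0.05, and 11 had a higher and 6 a lower mean in APC Min/+ mice. Those nearest to the threshold were the decoy receptor *Bambi* (log2 fold change -0.43), the Wnt receptor *Fzd7* (0.48) and the growth factor receptor *Met* (0.18).

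Of 14 further crypt base and stem cell genes, 2 had an unadjusted p under 0.05, beside the 5.27 percent of all genes given above. The water channel *Aqp4* had a log2 fold change of 1.55 (SE 0.616, FDR = 0.908, edgeR), with 480 CPM in M10_2 and 126 CPM in M13_1 against 33.0 to 51.0 CPM in the remaining APC Min/+ mice and 30.7 to 66.2 CPM in WT mice. *Smoc2* had a log2 fold change of 0.53 and *Lrig1* one of 0.37. Without M10_2 and M13_1 the 3 values were -0.055, 0.15 and 0.086.

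Of 23 pathway components tested, of 24 listed, 3 had an unadjusted p under 0.05. *Lgr4*, a receptor for R-spondins like *Lgr5*, had 337 CPM in M10_2 and 344 CPM in M13_1 against 107 to 161 CPM in the remaining APC Min/+ mice and 96.4 to 142 CPM in WT mice. This gave a log2 fold change of 0.73 (SE 0.269, FDR = 0.908, edgeR). The TCF/LEF genes *Tcf7l1* and *Tcf7l2* had log2 fold changes of 1.15 and 0.45. Without both mice the values of the 3 genes were 0.18, 0.29 and 0.17, and no gene of these lists then had an unadjusted p under 0.05, against a background of 1.59 percent.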

How the data were processed

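RNA of proximal colonic mucosa was sequenced in paired ends, 1 library per mouse (6 APC Min/+, 6 WT). The authors aligned the reads to GRCm38 (GRCm38.p2 in the submitters' processing notes) with STAR 2.3.0, and deposited raw featureCounts counts per gene, 1 table per mouse, with gene lengths. How strand and multiply aligned reads were handled, and which annotation release was used, are not given in the sources used here, nor which mouse came in which shipment.

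Symbols came from GENCODE M21, which matched 37607 of 38924 identifiers. Total counts ranged from 50313805 to 197914821, so the members with under 100 counts are the least precise. No 2 libraries agreed within sampling noise (lowest chi-square per degree of freedom 18.0). Genotypes were compared with edgeR 4.0.16 (TMM, glmQLFit and glmQLFTest, R 4.3.3) on the 20311 genes that reached 10 counts in 3 or more mice. A call needed a Benjamini-Hochberg FDR under 0.05 and at least 2-fold. The study's methods name edgeR and these cutoffs but not the edgeR test. Unlike the quasi-likelihood test used here, the study reported genes past these cutoffs in both directions. Single genes were also compared by the exact permutation test over the 924 splits, whose smallest two-sided p is 0.0022. CPM and RPKM were TMM-scaled, and log2 CPM had a prior count of 2. Correlations used 100000 permutations (Python 3.11.15, NumPy 2.4.6), so the smallest unadjusted p they can give is 1e-05. P-values treat each mouse as independent, although mice were caged together by genotype and came in several shipments, which the tests leave out.

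The members and all lists were chosen with earlier results of these data known. Named genes were the 10 members, the 3 genes of each wider list with the smallest unadjusted p, and the 3 genes with the highest r with each member, of which 1 is not reported here. Alternatives were other scalings and filters, DESeq2 1.42.0, edgeR's likelihood ratio and exact tests, mice left out, the suffix of the mouse name and the epithelial markers as terms. The length slope as a term and removal of the GC and length trends were chosen after seeing the data.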

Additional observations from a re-analysis of the deposited data

Results flagged for a closer look

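*Lef1* in M13_1 stood far above the other 5 APC Min/+ mice, at 1.97 CPM where they lay between 0.757 and 1.10 CPM, and its gap to the nearest was 0.717 of the range of the group. M13_1 is also 1 of the 2 libraries with high posterior Hox counts. This was 1 of 20 groups of 6 mice looked at for a far sample (10 genes in each genotype), and chance gives about 1 in 20.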

How the results depend on the processing

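No member was called under any scaling, filter, test, added term or left-out mouse, and the counts of members called, of members without overlap and of wider-list genes called stayed at 0. Over all genes 0 were called by edgeR's quasi-likelihood test (1071 at an unadjusted p under 0.05), against 27 by DESeq2, 15 by edgeR's likelihood ratio test and 12 by its exact test. The count of members with an exact permutation p under 0.05 ranged from 0 to 1 with a mouse left out, the 1 being *Znrf3* without M2_A. The count of correlated pairs was 12, ranged from 9 to 16 with a mouse left out, and was 24 without M10_2 and M13_1, 7 with the GC and length trends removed, and 4 with both. It was 16 with scaling by library totals only. Without M18_2b, M2_A, M19_1 or M17_1 it was 9. By rho the count was 4 with the trends removed and 0 with M10_2 and M13_1 left out as well. Pairs of member and marker list fell from 4 to 1 without M10_2 and M13_1, and to 1 with the trends removed. Log2 fold changes turned sign with the length slope as a term for *Axin2* (-0.037), *Rnf43* (-0.087) and *Lgr5* (-0.046), without M10_2 and M13_1 for *Rnf43* (-0.029) and *Sp5* (0.079), and with 1 mouse left out for *Nkd1* (-0.027 without M17_1, range -0.027 to 0.30) and *Lgr5* (-0.021 without M8_2, range -0.021 to 0.14). The cause was not tested. *Notum*, *Znrf3*, *Ascl2*, *Tcf7* and *Lef1* kept their sign in all 22 alternatives. No paired analysis was possible because the mouse names of the 2 genotypes have only the number 18 in common (M18_2b, M18_2a and M18_b), which is fewer than 2 shared numbers. The labels do not say what the suffix of a name marks, and with it as a term 0 members were called. Depth limits *Sp5* and *Notum* most, with as few as 4 and 10 counts in a mouse.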
